A study of Arabidopsis thaliana with 148 samples.

Results

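The genes described here are 100 transcripts whose level in unheated Arabidopsis seedlings peaked late in the subjective night. They were taken from 38194 genes in the table. Chloroplast and mitochondrial genes were set aside, and counts scaled to equal library totals (CPM) were averaged over the replicates of total mRNA controls at 8 times of day. Genes were kept with an average of at least 10 CPM and their highest mean at ZT66 or ZT69, where ZT (Zeitgeber time) counts hours from dawn. Of the 2113 genes that met this, the 100 with the largest ratio of highest to lowest mean were taken, with a pseudocount of 1 and without CCA1, LHY, CDF1 and CDF2. The members were thus chosen by their levels in total mRNA controls, and those levels are given as a description with no test.

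The seedlings carried p35S:HF-RPL18, a tagged ribosomal protein L18 expressed from the 35S promoter, in heated and control groups alike. Polyadenylated RNA was sequenced from ribosomes purified by that tag (translating ribosome affinity purification, TRAP) and from whole extracts (total mRNA). Seedlings spent 10 days in 12 h light and 12 h dark at 22 °C, entered constant light on day 11 and were heated at 37 °C for 1 h on day 13, each set ending at 1 of 8 times from ZT48 to ZT69. Controls stayed at 22 °C and were also taken at ZT72. In a separate recovery experiment heat ended at ZT54 and seedlings were sampled 0, 1, 3 and 6 h later beside controls of the same hour. Groups held 3 libraries, except TRAP controls at ZT60 and total mRNA controls at ZT57, which held 2. The labels do not say how many seedlings were pooled or whether replicates grew apart, and a p-value here weighs only library-to-library spread, technical or not.

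Plants prepare for dawn before light returns. The morning-phased members of the circadian clock are MYB-like proteins of the CCA1, LHY and REVEILLE family, which bind evening elements and related sites, and their own messages build up late in the night. Photosynthesis, starch turnover, flavonoid synthesis and the scavenging of hydrogen peroxide are classes of output known to follow the clock in Arabidopsis. In constant light, as here, an oscillation of such a message runs without a change of light.

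Levels below are scaled CPM, in which a library's nuclear total is first multiplied by its TMM factor. Time-course libraries were scaled together, and the libraries of the recovery experiment within each kind of RNA. That choice matters for heat. With plain library totals the median log2 difference, heat minus control, over all genes of at least 10 CPM was -1.06 in TRAP and -0.86 in total mRNA, and 15 of the 100 late-night genes lay above 0 in TRAP. With TMM the medians were 0.01 and 0.03, and 56 lay above 0 in TRAP. Every heat direction below is relative to the TMM scale, and many would turn to lower on the scale of plain totals. Heat shock messages stood far apart in the direction of the labels: HSP101, a disaggregase, had 4307 to 7456 scaled CPM in heated and 5.23 to 156 in control total mRNA. Libraries held 1396305 to 13706459 reads. Time-course total mRNA libraries from ZT60 on had 1075809 to 6142560 nuclear reads, against 3353759 to 9248627 in those up to ZT57. TRAP libraries had 3775131 to 11774331 from ZT60 on, against 5473953 to 13642462. The comparisons of ZT66 and ZT69 with ZT54 and ZT57 below run across this split. ZT60, also compared in TRAP controls, is on the side of ZT66 and ZT69.

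The genes differed most by 31.7-fold between highest and lowest mean (AT2G16367, a transcribed pseudogene) and least by 3.95-fold (RBCS2B). Just inside the limit were AT2G37240 at 4.00 and AT1G78995 at 4.00, and just outside it were AT1G68570 at 3.93, BGLU40 at 3.92 and the sulfate-assimilation gene APR2 at 3.90. Behind AT2G16367 came GBSS1 at 28.1, AT2G27420 at 24.0, DFR at 20.9, the long noncoding RNA AT5G06845 at 16.3, LDOX at 15.4, the long noncoding RNA AT2G09250 at 14.9, AT3G24460 at 13.8, the noncoding AT1G09855 at 13.1 and AT1G65490 at 11.3. There were 70 genes with their peak at ZT66 and 30 at ZT69. Troughs fell at ZT57 for 35 genes, ZT48 for 26, ZT54 for 21, ZT60 for 11 and ZT51 for 7. The set held 83 coding genes, counting the pseudogene, and 17 noncoding loci, among them 4 small nucleolar RNAs, 2 U2 small nuclear RNAs and 1 microRNA precursor.

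The 26 genes with a trough at ZT48 behaved unlike the other 74. Their summed level was 605 to 853 scaled CPM in the 3 heated total mRNA libraries at ZT48 and in heated replicate 3 at ZT51, against 1172 to 2383 in the 20 other heated libraries. In controls it was 266 to 334 in the same 4 positions, against 1039 to 2321 in the 22 others. In total mRNA low values thus went with all ZT48 libraries and with replicate 3 at ZT51, heated or not. The other replicates at ZT51 stood with the rest. At ZT72, the same clock phase a day later, the level was back: the log2 ratio of ZT72 to ZT48 had a median of 1.81 over the 26 genes, against 0.36 over the other 74. Small nuclear and nucleolar RNA loci outside the set were also low there in controls, at 273 to 321 scaled CPM in sum, against 390.2 to 779 elsewhere, and in heated libraries at 508 to 709.5, against 571 to 973. With these libraries left out, 68 of the 100 genes were still chosen, and of the 26 only AT1G78995 was. With ZT72 used in place of ZT48, 62 genes were still chosen. The 26 were grouped by having their lowest total mRNA control mean at ZT48. Their low ZT48 controls, the ratio of ZT72 to ZT48 and their loss from the choice follow in part from that grouping. Heated libraries had no part in it. In TRAP the summed level of the 26 genes was also lower in the same 4 positions, though with overlap. It was 71.5 to 273 scaled CPM in controls, against 221 to 431 in the other TRAP controls. In heated TRAP libraries it was 296 to 414, against 400 to 564.

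**Figure D1:**
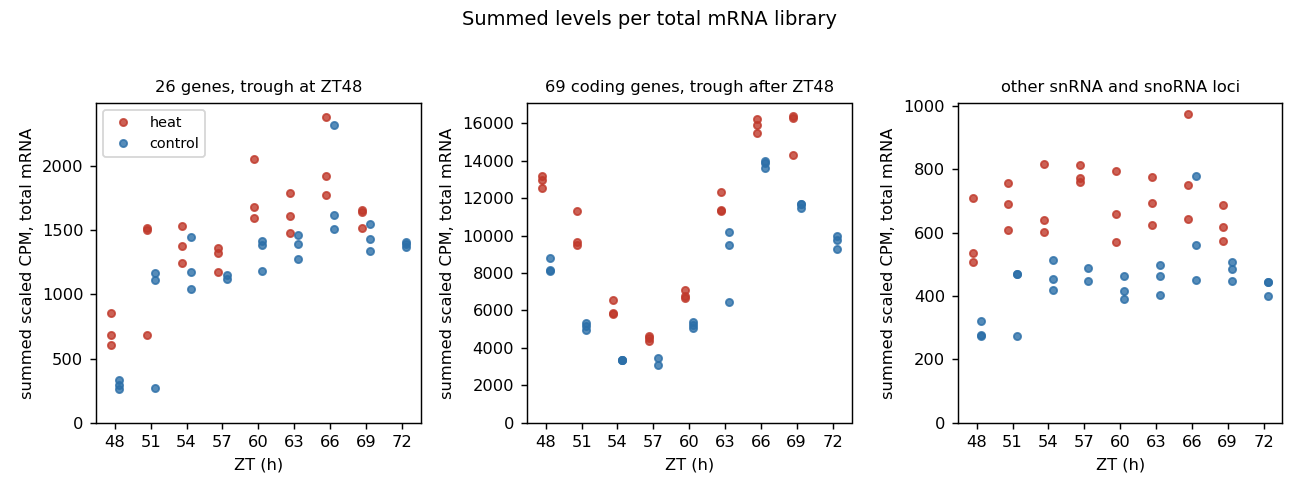
Summed scaled CPM (vertical axis) per total mRNA library against ZT in hours (horizontal axis), heated in red to the left of control in blue, for the 26 genes with a trough at ZT48, the 69 coding genes with a later trough and the 363 small nuclear and nucleolar RNA loci outside the set. In the left panel the ZT48 points and 1 point of each treatment at ZT51 lie at or below 853, under every other library; the middle panel shows a trough at ZT54 to ZT60 in both treatments.

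Of those 26 genes, 12 are noncoding, and 18 are either noncoding or coding genes that overlap a noncoding locus. Across the whole set 50 genes overlap a neighbour and 26 overlap another member, 43 of the 50 on the opposite strand. Whether counting used strand is not given in the sources used here. Reads from the stretch that such genes share therefore cannot be told apart. HSFA9, a heat shock factor known from seeds, overlaps the U3D small nucleolar RNA on the opposite strand. In total mRNA controls at ZT66 HSFA9 had 24.1, 36.5 and 19.1 scaled CPM, and U3D had 24.8, 37.8 and 19.5. In TRAP at the same time HSFA9 had 0.986, 0.923 and 0.893 and U3D 0.986, 1.08 and 1.00. The values of the pair were nearly equal library by library. The same held for the bHLH gene AT2G40200 with AT2G40205 and for AT1G66820 with AT1G66830. AT1G15405 and AT1G05163 were nearly equal in total mRNA, but not in each TRAP library, where both were low: at ZT69 AT1G15405 had 0.417, 0.158 and 0.343 and AT1G05163 0.417, 0.630 and 0.687 in heated TRAP libraries.

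The promoters of 4 genes are shown because these genes carry results below and hold the G-box CACGTG, a site that light- and clock-related basic factors bind: RVE2, DFR, BCH2 and RBCS2B. Each is the 250 bases before the RefSeq start of the gene (build TAIR10.1, all on the minus strand, 5′ to 3′). Capitals mark G-boxes, the CCA1-binding site AAAAATCT and the HUD box CACATG, read on both strands.
RVE2, chr5:14753089-14753338: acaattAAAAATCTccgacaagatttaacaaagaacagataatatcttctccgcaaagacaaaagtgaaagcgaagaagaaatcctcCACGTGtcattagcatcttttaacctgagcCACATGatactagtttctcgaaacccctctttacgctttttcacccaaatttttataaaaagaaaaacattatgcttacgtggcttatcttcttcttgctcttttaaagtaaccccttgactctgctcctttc
DFR, chr5:17166033-17166282: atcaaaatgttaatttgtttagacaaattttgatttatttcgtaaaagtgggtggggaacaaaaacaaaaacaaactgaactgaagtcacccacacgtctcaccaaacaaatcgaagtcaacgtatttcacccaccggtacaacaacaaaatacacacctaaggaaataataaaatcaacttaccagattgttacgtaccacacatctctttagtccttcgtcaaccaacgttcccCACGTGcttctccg
BCH2, chr5:21337127-21337376: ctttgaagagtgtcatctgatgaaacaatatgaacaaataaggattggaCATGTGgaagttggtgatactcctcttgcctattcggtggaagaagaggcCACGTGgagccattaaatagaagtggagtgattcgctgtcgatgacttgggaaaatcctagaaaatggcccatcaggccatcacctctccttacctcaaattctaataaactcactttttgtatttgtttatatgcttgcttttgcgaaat
RBCS2B, chr5:15382072-15382321: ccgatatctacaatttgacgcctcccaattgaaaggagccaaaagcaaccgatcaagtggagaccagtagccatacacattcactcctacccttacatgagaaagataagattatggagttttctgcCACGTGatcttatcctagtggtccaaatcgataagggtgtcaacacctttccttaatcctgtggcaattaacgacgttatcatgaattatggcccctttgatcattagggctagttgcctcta
The G-box stood 163 bases before the start in RVE2, 14 in DFR and 151 in BCH2. The RVE2 window also held a CCA1-binding site 244 bases before the start and a HUD box 133 bases before it.

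Over the window from 250 bases before to 50 after the start, 82 of the 100 genes had a RefSeq promoter. A G-box stood in 10 of them, 12.2%, against 7.68% of 27443 promoters. The CCA1-binding site was in 6.10% of the late-night genes against 7.88% of all, the evening element AAAATATCT in 1.22% (1 gene, the defensin PDF2.1) against 2.82%, and the HUD box in 17.1% against 12.9%. The protein box ATGGGCC stood in 7.32% against 8.17%, the telobox AAACCCT in 3.66% against 10.0%, the starch box AAGCCC in 11.0% against 12.3% and the dehydration-responsive element core CCGAC in 13.4% against 15.05%. The LUX-binding site GATACG was in 0 of 82, against 5.54% of all. Heat shock element cores stood in 12.2% against 11.6% (GAANNTTC) and in 7.32% against 9.16% (TTCNNGAA). All motifs were read on both strands, and none of these pairs of shares was tested.

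On ribosomes too most of the genes were higher late in the night. The choice of genes had not used TRAP libraries, but the labels do not say whether TRAP and total mRNA came from the same seedlings. Same-numbered TRAP and total mRNA controls deviated together, with a correlation above 0.1 across genes in 16 of 25 pairs and at most 0.709, and the TRAP controls are therefore not taken as independent of the controls that chose the genes. In TRAP controls, late night (ZT66 and ZT69) was compared with the opposite phase (ZT54 and ZT57). Of the 93 genes that passed the filter on low counts, 76 were higher late in the night and none was lower (edgeR quasi-likelihood test, Benjamini-Hochberg adjusted p below 0.05). Over all 20989 genes tested, 21.9% were higher and 21.5% lower. The median log2 difference was 1.94 over the late-night genes and -0.01 over all genes, and 71 genes were called higher with no overlap between late-night and opposite-phase libraries, against 12.7% of all genes. The 7 genes that failed the filter were AT2G09250, U2.1, U3B, AT5G53905, AT5G08155, AT5G53740 and AT4G04595. Of the genes with a trough after ZT48, 71 of 73 tested were higher, and of those with a trough at ZT48, 5 of 20. Against ZT60 alone, which has 2 libraries, 66 of 93 were higher and none lower, with 12.9% of all genes higher and 11.2% lower. They were 66 of 73 genes with a trough after ZT48 and 0 of 20 with a trough at ZT48. Root marker genes, 3 of 6 of them above 1 scaled CPM in TRAP, summed to 103.4 to 124 scaled CPM at ZT66 and ZT69 in TRAP controls, against 55.2 to 70.0 at ZT54 and ZT57. All 4 shoot markers together reached 33702 to 36302 late in the night, against 18009 to 24652, and the 3 guard cell markers 27.7 to 32.3, against 29.96 to 34.4. In bulk seedlings fewer cells of a type and less RNA per cell cannot be told apart, and the part of cell types in the late-night rise was not tested.

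**Figure D2:**
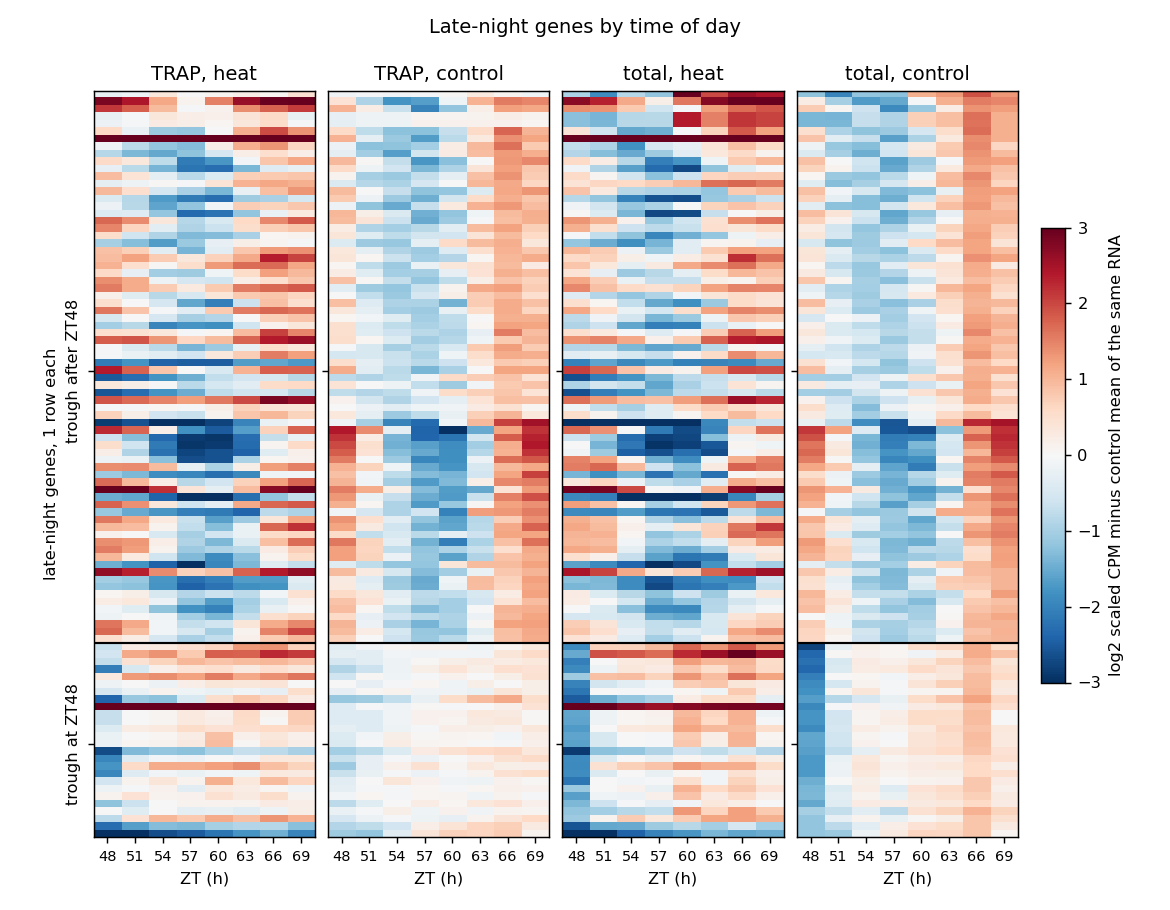
Mean log2 scaled CPM + 1 of the 100 genes (1 row each) against ZT in hours, as the difference from each gene's mean over controls of the same RNA, with TRAP heat, TRAP control, total mRNA heat and total mRNA control from left to right. Red is higher and blue lower; genes with a trough after ZT48 stand above the black line and show the blue band at ZT54 to ZT60 in all 4 panels, while the 26 below it are blue at ZT48 mainly in total mRNA.

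The starch and sugar genes named here, and a plastid phosphoenolpyruvate carrier, were all called higher late in the night. GBSS1, the granule-bound starch synthase that makes amylose, had 83.8 to 207 (median 138) scaled CPM late in the night in TRAP controls, against 6.62 to 34.9 (median 18.7) in the opposite phase, a log2 difference of 3.12 ± 0.11 (SE, adjusted p = 1.57e-27). All 6 late-night libraries lay above all 6 of the opposite phase. BAM3, the plastid beta-amylase of nightly starch breakdown, had 341 to 551 (median 422) against 80.8 to 128 (median 112), a difference of 1.97 ± 0.10. SPS4F, a sucrose-phosphate synthase, had 163 to 219 (median 182) against 33.2 to 47.7 (median 38.5), or 2.27 ± 0.11. The plastid phosphoenolpyruvate carrier PPT2 differed by 1.69 ± 0.12. AT4G06665, a noncoding locus opposite BAM3 and within its span, differed by 1.97 ± 0.13, and its reads cannot be told apart from those of BAM3.

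Genes of anthocyanin synthesis had low troughs and steep rises. DFR, dihydroflavonol reductase, had 17.1 to 59.0 (median 30.7) scaled CPM late in the night in TRAP controls against 1.68 to 2.93 (median 2.31) in the opposite phase, a difference of 3.72 ± 0.23 (adjusted p = 7.22e-16). LDOX, the enzyme that follows it, differed by 3.36 ± 0.18, and GSTF12, a glutathione transferase that carries anthocyanins to the vacuole, by 2.88 ± 0.18. In all 3 the late-night libraries lay above every library of the opposite phase. In the list of 23 phenylpropanoid and flavonoid genes, of which DFR is the member here, 21 of 22 tested were higher late in the night and none was lower, with a median of 0.66.

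CA1, RBCS2B and the catalase gene CAT2 had abundant messages. CA1, the chloroplast carbonic anhydrase, had 2157 to 3218 (median 2762) scaled CPM late in the night in TRAP controls against 653 to 767 (median 696), and RBCS2B, a small subunit of Rubisco, had 2182 to 3976 (median 2918) against 848 to 1128 (median 964). The log2 differences were 1.92 ± 0.10 for CA1 and 1.58 ± 0.10 for RBCS2B. FBA1, a plastid aldolase of carbon fixation, differed by 2.07 ± 0.08, CP12-2, a redox switch of the same cycle, by 1.42 ± 0.10, and the carbonic anhydrase BCA3 by 1.63 ± 0.10. CAT2, the leaf catalase that removes hydrogen peroxide in peroxisomes, had 1673 to 1819 (median 1744) against 187 to 525 (median 298), a difference of 2.53 ± 0.15. LHCB4.3, a minor antenna protein, differed by 2.81 ± 0.18. It went against most of its list: of 20 light harvesting genes 3 were higher and 17 lower late in the night.

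Among isoprenoid genes, the cis-prenyltransferase cPT4 differed by 2.72 ± 0.10, the squalene epoxidase SQP1 by 2.31 ± 0.14 and the beta-carotene hydroxylase BCH2 by 1.48 ± 0.10. Of 10 genes on the carotenoid and plastid isoprenoid list, 7 were higher and 1 was lower. Nutrient and redox genes were VTC2, the GDP-galactose phosphorylase of ascorbate synthesis, with 2.09 ± 0.08, the ammonium transporter AMT1;2 with 2.69 ± 0.13, and the low-sulfur response gene LSU2 with 1.66 ± 0.12. Genes known from defence and dehydration included PCC1 at 2.49 ± 0.40, PDF2.1 at 1.94 ± 0.12, the late embryogenesis abundant LEA3 at 2.91 ± 0.19 and the caleosin RD20 at 1.99 ± 0.21. The small auxin-induced gene SAUR60 differed by 2.35 ± 0.15, the methylesterase MES18 by 2.67 ± 0.14, the iron-sulfur protein NEET by 1.95 ± 0.25 and the MATE transporter DTX1 by 1.78 ± 0.23. Each of these genes was called higher.

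Of the 4 transcription factors in the set, RVE2, a REVEILLE protein of the CCA1 family, had 72.3 to 119 (median 102) scaled CPM late in the night in TRAP controls, against 19.4 to 32.3 (median 26.3) in the opposite phase, a difference of 1.94 ± 0.08 (adjusted p = 1.57e-29). BBX31, a small B-box protein of light signalling, differed by 2.72 ± 0.16. HSFA9, with 0.37 ± 0.40, and AT2G40200, with 0.60 ± 0.28, were not called. Of 30 clock genes on the list, RVE2 among them, 10 were higher and 15 lower late in the night. Of 22 B-box, CONSTANS-like and CDF factors, 11 were higher and 8 lower. The largest differences of the set were AT2G16367 with 4.92 ± 0.23, AT2G27420 with 4.77 ± 0.17 and DFR.

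In controls the median level on ribosomes was close to that in total mRNA over the coding genes and far below it over the noncoding loci. As a description, 88 of the 100 genes had their peak in TRAP controls at ZT66 or ZT69, and the median ratio of highest to lowest mean was 4.42 in TRAP and 5.51 in total mRNA. The median difference of log2(scaled CPM + 1), TRAP minus total mRNA, was -2.95 in controls for the 17 noncoding loci, whose median level in TRAP was 0.634 scaled CPM, under the pseudocount of 1, against -0.0043 for the 83 coding genes. For the 26 genes with a trough at ZT48, coding and noncoding, it was -2.73.

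**Figure D3:**
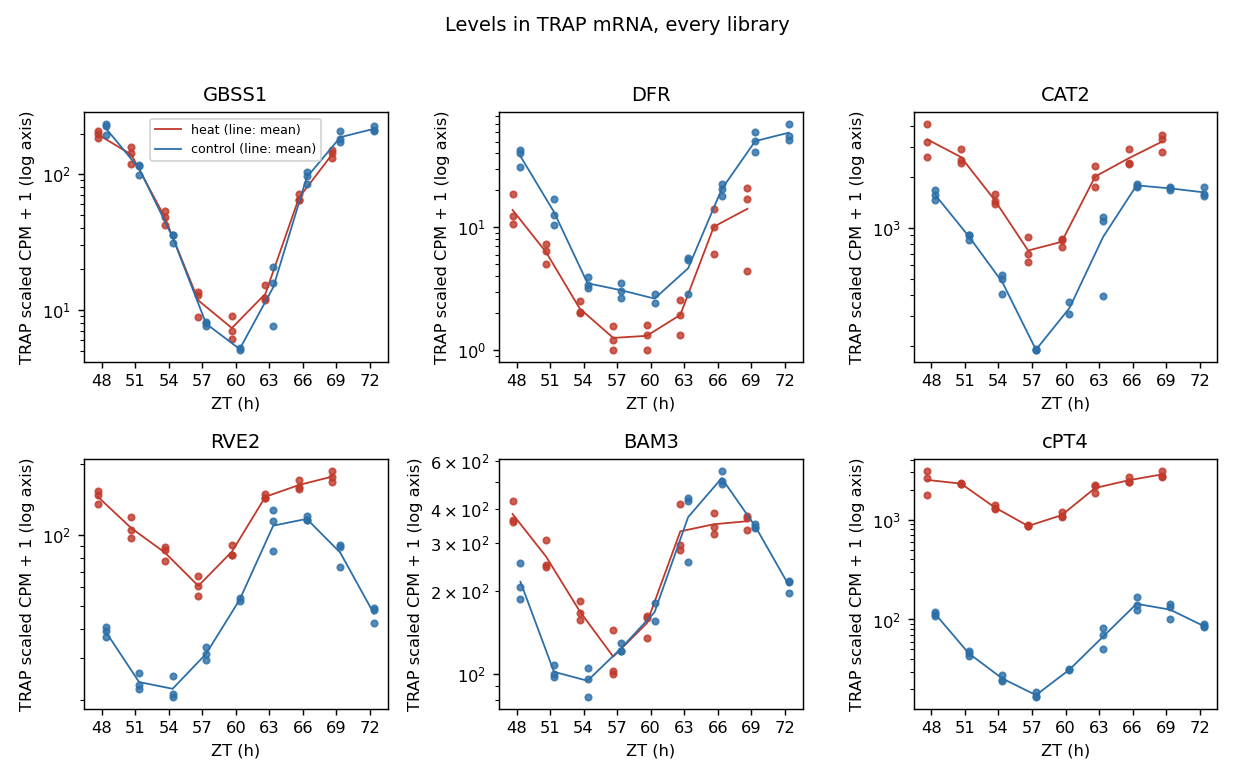
Scaled CPM + 1 in TRAP mRNA (vertical axis, logarithmic) against ZT in hours for 6 late-night genes, 1 point per library, heated in red to the left of control in blue, with lines through the means. GBSS1 runs close in both treatments, DFR lies lower and CAT2, RVE2 and cPT4 higher after heat, and BAM3 is higher after heat at ZT48 to ZT54 and not at ZT57 to ZT63.

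After 1 h of heat most of the genes were still higher late in the night. Among heated TRAP libraries, 72 of 93 genes were higher at ZT66 and ZT69 than at ZT54 and ZT57 and none was lower, with 17.8% of all genes higher and 18.4% lower. They were 69 of 73 genes with a trough after ZT48 and 3 of 20 with a trough at ZT48. As a description, the highest mean fell at ZT66 or ZT69 for 75 of the 100 genes in heated TRAP and 76 in heated total mRNA, against 88 in TRAP controls, and at ZT48 for 14 in heated TRAP, against 5 in TRAP controls. Among heated total mRNA libraries 76 of 100 were higher and none lower, with 12.7% of all 21260 genes higher and 16.0% lower. The medians were 1.41 and 1.51. There were 71 genes called higher in TRAP with and without heat, against 13.1% of all genes, and 70 called higher in those and in heated total mRNA, against 8.69%. In heated TRAP libraries AT2G16367 differed by 5.61 ± 0.55, DFR by 4.204 ± 0.45 and AT2G27420 by 3.69 ± 0.37. In heated total mRNA the same 3 differed by 5.19 ± 0.39, 5.66 ± 0.69 and 4.93 ± 0.46. PCC1 was called in controls but not after heat, with 1.86 ± 0.90 in TRAP, and the difference between these differences was not called (adjusted p = 0.844).

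Where the size of the late-night difference changed with heat, it mostly became smaller. The difference after heat minus that in controls was called lower in 20 genes and higher in 1, of 93 in TRAP, with 2.65% of all genes called higher and 2.58% lower. Its median was -0.31 over the late-night genes and -0.01 over all genes. Its control side rests on the TRAP controls that are not independent of the choice of genes. Without replicate 1 the count of 21 became 11, and without replicate 3 it became 12. The strongest were the long noncoding RNA AT5G06385 at -1.50 ± 0.30, cPT4 at -1.43 ± 0.14 and SPS4F at -1.09 ± 0.17, followed among genes of known role by CAT2 at -1.07 ± 0.20, GBSS1 at -1.04 ± 0.17 and SQP1 at -0.93 ± 0.19. The difference of RVE2 fell by 0.71 ± 0.11, that of VTC2 by 0.67 ± 0.11 and that of BAM3 by 0.64 ± 0.14 on the log2 scale. The call of AT5G06385, which lies opposite AT5G42760, was lost without replicate 3. The exception was AT1G78995, whose difference grew by 0.60 ± 0.19 (adjusted p = 0.0470), a call lost under 5 of the alternatives, among them leaving out replicate 1 or replicate 3.

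The genes whose late-night difference became smaller did not all move alike with heat. cPT4, CAT2 and RVE2 were called higher after heat at all 8 times, and SPS4F and VTC2 lower at all 8. Of these genes only GBSS1 and BAM3 were called in both directions at different times. At ZT57 GBSS1 had 11.8, 7.88 and 12.5 scaled CPM in heated TRAP libraries, against 6.62, 6.94 and 7.09 in controls. At ZT69 it had 130.1, 149 and 142 in heated libraries, against 173, 207 and 181 in controls. Heated values were above controls at ZT57 and below them at ZT69, without overlap at either time. At ZT48, the highest control mean of GBSS1 in TRAP, heated libraries had 208, 185 and 196, against 228, 236 and 193 in controls, with overlap, and the difference of -0.07 ± 0.14 was not called (adjusted p = 0.695).

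**Figure D4:**
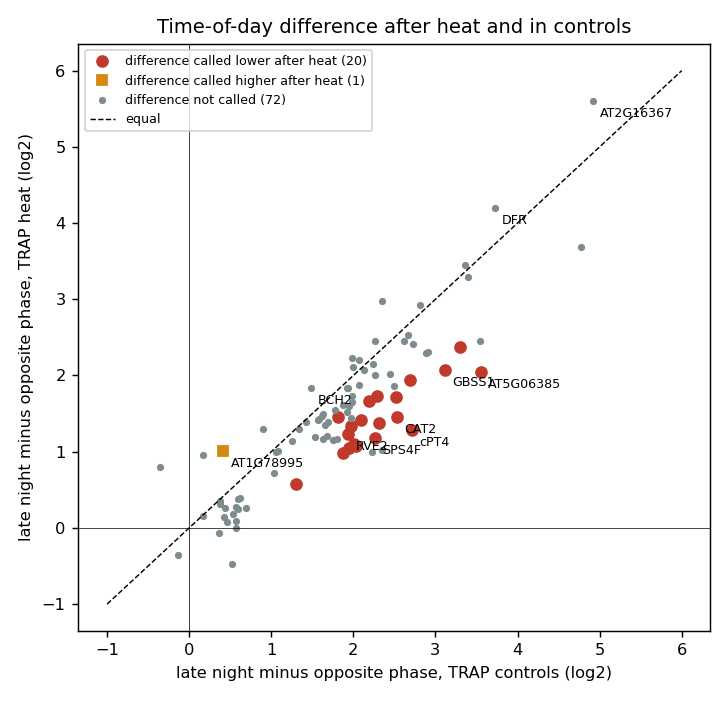
Late-night minus opposite-phase log2 difference in heated TRAP libraries (vertical axis) against the same in TRAP controls (horizontal axis) for the 93 genes tested, with the dashed line where both are equal. Red circles mark the 20 genes whose difference was called lower after heat, the orange square the 1 called higher, and grey points the other 72; the red circles lie under the line.

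Averaged over the 8 times, heat moved the genes in both directions. In TRAP, 44 of 93 were higher and 32 lower, against 38.0% higher and 45.5% lower over all genes, and the median was 0.12 against -0.09. The noncoding loci had 6 higher and none lower of 12 tested. By time, the counts of higher and lower genes were 28 and 28 at ZT48, 43 and 17 at ZT51, 36 and 17 at ZT54, 31 and 22 at ZT57, 25 and 24 at ZT60, 26 and 27 at ZT63, 22 and 33 at ZT66, and 22 and 29 at ZT69. Over all genes the shares called higher were 30.5%, 29.7%, 29.1%, 27.7%, 24.9%, 27.3%, 25.0% and 27.6% at these times, and the shares called lower 29.7%, 29.9%, 29.7%, 29.1%, 25.6%, 29.1%, 26.3% and 27.9%. Late-night genes were called higher most often at ZT51 and ZT54 and lower most often at ZT66. The genes were chosen for high controls at ZT66 or ZT69, and TRAP controls are not independent of that choice. How much of this order follows from the choice was not tested. Of the 43 genes higher at ZT51, 38 had a trough after ZT48. Without the ZT48 libraries and replicate 3 at ZT51, 78 genes were called for the mean over times, against 76 with them.

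There were 14 of 93 genes higher after heat at all 8 times, against 17.8% of all genes. cPT4 changed most: it had 859 to 3110.1 (median 2205) scaled CPM in 24 heated TRAP libraries, against 15.5 to 165 (median 49.3) in 23 controls of the same times, a log2 difference of 5.10 ± 0.06 (adjusted p = 1.38e-60), and no heated library overlapped a control. DEG14, a protease, differed by 4.59 ± 0.13, with 106 to 319.7 (median 162) against 2.00 to 11.4 (median 7.56). It has a trough at ZT48 and overlaps MIR5657. AT3G28270 differed by 2.16 ± 0.05, BCH2 by 2.13 ± 0.05, LSU2 by 1.99 ± 0.06, the chloroplast alkenal reductase AOR by 1.90 ± 0.04 and its overlapping neighbour BCA3 by 1.72 ± 0.05. CAT2 had 623 to 4135 (median 2349) in heated libraries against 187 to 1819 (median 909) in controls, a difference of 1.32 ± 0.07. RD20 at 1.29 ± 0.11, RVE2 at 1.26 ± 0.04, ENH1 at 1.04 ± 0.09, CA1 at 1.01 ± 0.05, AMT1;2 at 0.99 ± 0.07 and FBA1 at 0.80 ± 0.04 complete the 14.

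There were 12 of 93 genes lower after heat at all 8 times, against 13.5% of all genes. AT2G16367 had 0 to 16.3 (median 1.60) scaled CPM in heated TRAP libraries, against 1.42 to 89.1 (median 11.6) in controls, and fell by 2.92 ± 0.21 on the log2 scale. AT1G78995 fell by 2.75 ± 0.07, AT5G06790 by 2.52 ± 0.10, LEA3 by 2.19 ± 0.14 and AT3G28220 by 1.68 ± 0.08. SPS4F had 16.8 to 79.7 (median 43.5) in heated libraries against 33.2 to 219 (median 99.3) in controls and fell by 1.23 ± 0.06. VTC2 fell by 0.79 ± 0.04, CRR42, needed for the chloroplast NDH complex and overlapping AT5G20940, by 1.39 ± 0.10, the cyclin CYCP2;1 by 1.37 ± 0.12 and AT4G24700 by 1.04 ± 0.08. The overlapping pair of AT1G66820 and AT1G66830 completes the 12. Another 12 genes were called at none of the 8 times, against 14.8% of all genes, among them DTX1, COX17 and the noncoding loci U3D, SNOR108 and AT1G15405.

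The 3 anthocyanin genes fell on average, DFR by 1.64 ± 0.22, LDOX by 1.80 ± 0.16 and GSTF12 by 1.51 ± 0.14, and DFR was called lower at 6 of the 8 times. At ZT69 DFR had 20.0, 16.1 and 3.43 scaled CPM in heated TRAP libraries, against 39.7, 59.0 and 49.4 in controls. On the phenylpropanoid and flavonoid list 3 of 22 were higher and 19 lower, with a median of -0.93. AT2G27420 fell by 2.24 ± 0.17 and PCC1 by 2.14 ± 0.45. The phosphoenolpyruvate carrier PPT2 fell by 0.38 ± 0.08. Among starch genes BAM3 was higher by 0.31 ± 0.05. GBSS1 averaged 0.15 ± 0.07, a call that was lost under 5 of the alternatives. Of the photosynthesis genes RBCS2B was higher by 0.32 ± 0.05 and LHCB4.3 by 0.38 ± 0.10, whose call was lost without replicate 3, and CP12-2 fell by 0.60 ± 0.05. Light harvesting genes had 18 higher and 1 lower of 20, carotenoid and plastid isoprenoid genes 8 higher and none lower of 10, clock genes 20 higher and 7 lower of 30, and B-box, CONSTANS-like and CDF factors 16 higher and 5 lower of 22. BBX31 was higher by 0.60 ± 0.10. HSFA9, at 0.06 ± 0.12, and AT2G40200, at -0.25 ± 0.16, were not called. Root markers summed to 25.6 to 84.8 scaled CPM in heated TRAP libraries against 55.2 to 124 in controls, and shoot markers to 23564 to 60470 in heated against 18009 to 40845 in control libraries. Guard cell markers summed to 14.4 to 35.9 (median 22.3) in heated against 23.3 to 40.3 (median 32.2) in control libraries. Their part in the heat differences was not tested.

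In total mRNA, where the controls chose the genes, the heat difference is given as a description. It lay above 0 for 50 genes and below 0 for 50, with a median of 0.00, against a median of 0.03 over 13373 genes of at least 10 CPM. Values ran from -2.88 for AT2G16367 to 4.81 for cPT4.

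The heat response of 29 of the 93 genes differed between times of day in TRAP (F test with 7 degrees of freedom, adjusted p below 0.05), against 7.10% of all genes. Without replicate 3 the count was 19. This test too rests on TRAP controls, which are not independent of the choice of genes. RVE2 had the smallest p (adjusted p = 7.47e-18). It was higher by 2.02, 2.27 and 2.02 at ZT48, ZT51 and ZT54, by 1.02, 0.73, 0.44 and 0.49 at ZT57, ZT60, ZT63 and ZT66, and by 1.13 at ZT69, on the log2 scale. At ZT51 it had 104, 95.96 and 118 scaled CPM in heated TRAP libraries, against 25.1, 22.1 and 21.1 in controls. At ZT66 it had 171, 159.6 and 156 in heated libraries against 114, 119 and 115 in controls. Heated libraries lay above controls at both times, and the log2 difference was largest from ZT48 to ZT54.

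AT3G28270 was also higher at every time, by 3.44 at ZT51 and 1.43 at ZT66 (adjusted p for the difference between times = 1.48e-14). cPT4 was higher by 5.81 at ZT54 and 4.14 at ZT66 (adjusted p = 1.52e-11). BAM3 changed direction: it was higher by 0.92, 1.46 and 0.91 at ZT48, ZT51 and ZT54, was not called at ZT57, ZT60 and ZT63, fell by 0.55 at ZT66 and was not called at ZT69 (adjusted p between times = 3.14e-10). At ZT51 BAM3 had 249, 244 and 306 scaled CPM in heated libraries against 98.8, 96.3 and 106 in controls, and at ZT66 323, 343 and 386 against 506, 494 and 551. AT4G06665, which shares its locus, followed it (adjusted p = 4.60e-09). GBSS1, HBP1 and AT3G56290 were the other genes called in both directions at different times, which made 5 in all, against 1.11% of all genes. The difference between times was called for GBSS1 (adjusted p = 0.000388) and HBP1 (adjusted p = 2.15e-05) and not for AT3G56290 (adjusted p = 0.0660). Of the 30 clock genes on the list, RVE2 among them, 17 differed between times, as did 14 of 22 B-box, CONSTANS-like and CDF factors and 12 of 20 light harvesting genes.

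Heated TRAP libraries were also compared with heated total mRNA, on the TMM scale of all time-course libraries together. Same-numbered libraries were not paired in this fit, although 17 of 24 heated pairs deviated together with a correlation above 0.1. Of the 100 genes 39 were higher in TRAP and 41 lower, with 36.2% of all 22253 genes higher and 35.7% lower. The 83 coding genes had 37 higher and 26 lower with a median of 0.15, and the 17 noncoding loci 2 higher and 15 lower with a median of -4.26. The lowest were AT2G09250 at -6.47 ± 0.44 and the overlapping AT1G15405 at -5.87 ± 0.32 and AT1G05163 at -5.64 ± 0.31. At the top were AT4G06665 at 1.48 ± 0.10, whose reads cannot be separated from those of BAM3 at 0.94 ± 0.05, and DFR at 1.45 ± 0.51, a call that was lost when any replicate number was left out, and CAT2 at 1.095 ± 0.08. SPS4F at 0.99 ± 0.07, GBSS1 at 0.88 ± 0.09 and CA1 at 0.67 ± 0.05 were higher in TRAP as well. RVE2, at -0.67 ± 0.04, and BBX31, at -0.44 ± 0.10, were lower in TRAP. HSFA9, at -4.63 ± 0.22, stood with U3D at -4.71 ± 0.23.

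At the end of heat (0 h) in the recovery experiment, 31 of 94 genes tested in TRAP were higher and 19 lower, against 24.7% and 25.3% of all genes. In total mRNA 27 of 100 were higher and 23 lower, against 23.3% and 23.2%. After 1 h 8 were higher and 11 lower in TRAP, against 12.1% and 12.7% of all genes, and 13 higher and 14 lower in total mRNA, against 9.93% and 9.77%. After 3 h 3 were higher and 5 lower in TRAP, against 2.29% and 4.28%. None was called in total mRNA at 3 h by edgeR, against 0.531% of all genes higher and 0.619% lower, with 18 at an unadjusted p below 0.05 and 2 called by DESeq2. After 6 h 15 were higher and 10 lower in TRAP, against 2.05% and 3.42% of all genes, and 18 higher and 10 lower in total mRNA, against 2.42% and 4.01%. The counts called at 6 h fell to 4 in TRAP without replicate 3 and to 7 in total mRNA without replicate 1, and were 11 in TRAP without replicate 1 and 18 in total mRNA without replicate 3. At 3 h in TRAP the count of 8 became 2 without replicate 1, 1 without replicate 3 and 4 with the replicate number as a block. At 1 h the count of 27 in total mRNA became 13 without replicate 1 and 17 without replicate 2, and the count of 19 in TRAP became 11 without replicate 3.

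**Figure D5:**
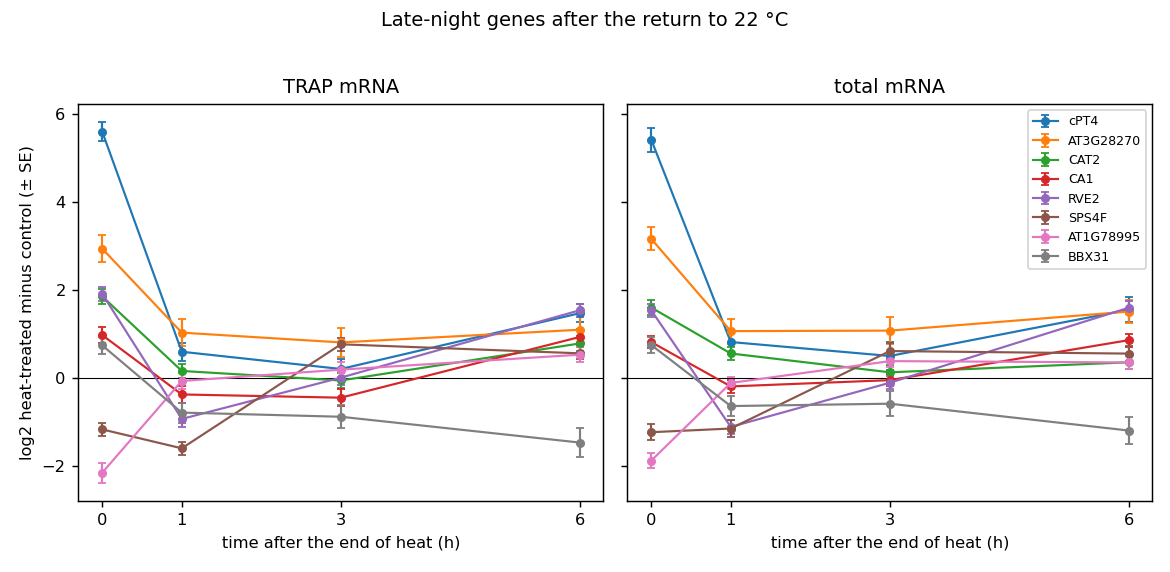
Log2 difference of heat-treated minus control seedlings, with its SE as error bars, 0, 1, 3 and 6 h after the end of heat for 8 late-night genes in TRAP (left) and total mRNA (right). cPT4 and AT3G28270 stay above 0 at all 4 hours, RVE2 is above 0 at 0 h, below it at 1 h, at about 0 at 3 h and above it at 6 h, and AT1G78995 is far below 0 at 0 h and not later. Neither cPT4 nor AT3G28270 was called at 3 h.

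RVE2 changed direction over recovery. At 0 h it had 104, 88.8 and 78.5 scaled CPM in heat-treated TRAP libraries, against 23.1, 24.3 and 24.5 in controls. At 1 h it had 8.28, 8.95 and 14.7 against 19.6, 18.9 and 23.3, and at 6 h 82.7, 76.2 and 89.5 against 26.6, 26.6 and 31.8. Heat-treated values lay above all controls at 0 and 6 h and below them all at 1 h. The log2 differences in TRAP were 1.92 ± 0.16 at 0 h, -0.93 ± 0.17 at 1 h, 0.01 ± 0.16 at 3 h and 1.54 ± 0.15 at 6 h, all called except at 3 h. In total mRNA they were 1.55 ± 0.14, -1.11 ± 0.16, -0.10 ± 0.15 and 1.60 ± 0.14 at these hours, with the same calls.

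SPS4F was lower at 0 h, where RVE2 was higher, and moved in the same direction as RVE2 at 1 and 6 h. At 1 h it had 17.2, 22.5 and 24.1 scaled CPM in heat-treated TRAP libraries, against 64.9, 58.6 and 68.99 in controls, and at 6 h 89.5, 78.5 and 90.9 against 57.1, 55.5 and 62.3. In TRAP it fell by 1.16 ± 0.15 at 0 h and by 1.59 ± 0.15 at 1 h, and was higher by 0.77 ± 0.14 at 3 h and 0.57 ± 0.14 at 6 h. The groups did not overlap at 1 h or at 6 h. In total mRNA it fell by 1.23 ± 0.18 and 1.14 ± 0.19 and was higher by 0.56 ± 0.16 at 6 h. CP12-2 followed the same order in TRAP, falling by 0.49 ± 0.16 and 1.25 ± 0.16 at 0 and 1 h and higher by 0.84 ± 0.16 at 6 h.

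cPT4 was higher by 5.61 ± 0.22 at 0 h in TRAP, by 0.60 ± 0.20 at 1 h and by 1.48 ± 0.20 at 6 h, and AT3G28270 by 2.95 ± 0.30, 1.04 ± 0.31 and 1.103 ± 0.29. Neither gene was called at 3 h. In total mRNA at 0 h cPT4 was higher by 5.43 ± 0.27, AT3G28270 by 3.17 ± 0.26 and AT3G24463 by 2.60 ± 0.26. DEG14 was higher by 4.54 ± 0.65 in TRAP at 0 h. CAT2 was higher by 1.86 ± 0.17 in TRAP at 0 h and by 0.79 ± 0.17 at 6 h, and CA1 by 0.98 ± 0.19 and 0.94 ± 0.19. BCH2, at 1.92 ± 0.22, and AMT1;2, at 1.89 ± 0.15, were called at 0 h and not later in TRAP. Of the 31 genes higher at 0 h in TRAP, 8 were higher at 1 h, 2 at 3 h and 9 at 6 h, and BBX31 and scpl10 were lower at 6 h. Of the 19 lower at 0 h, 4 were lower at 1 h, none at 3 h and 3 at 6 h, and 3 were higher at 6 h.

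Among called genes whose libraries did not overlap, the lowest in TRAP at 0 h were AT2G16367 at -2.62 ± 0.71, LDOX at -2.34 ± 0.86 and GSTF12 at -2.31 ± 0.90, and in total mRNA AT2G16367 at -2.91 ± 0.46, LDOX at -2.23 ± 0.77 and AT3G28220 at -2.02 ± 0.40. The LDOX and GSTF12 calls were lost without replicate 2 or without replicate 3. At 1 h the genes furthest above controls in TRAP were AT3G24463 at 1.79 ± 0.45, AT5G24155 at 1.51 ± 0.24 and AT1G62170 at 1.33 ± 0.25, with the first of these calls lost without replicate 2 and the last without replicate 3. In total mRNA they were AT1G62170 at 1.54 ± 0.28, AT5G24155 at 1.31 ± 0.22 and AT1G09855 at 1.105 ± 0.21. AT1G29600, at -1.93 ± 0.29, and AT5G55570, at -1.18 ± 0.32, were the lowest called genes in total mRNA at 1 h, and AT5G55570 was also low in TRAP at -1.06 ± 0.30, both AT5G55570 calls lost without replicate 3. At 3 h in TRAP, RD20 at 0.92 ± 0.22, AT3G48460 at 0.83 ± 0.21 and SPS4F were higher, and COX17 at -2.53 ± 0.66, DEG14 at -2.35 ± 0.66, PDF2.1 at -0.98 ± 0.27, BBX31 at -0.88 ± 0.26 and BCA3 at -0.62 ± 0.19 were lower. The calls of RD20, AT3G48460, COX17, PDF2.1 and BBX31 were lost in at least 1 fit that left out a replicate number, and that of SPS4F was kept in each. COX17, a copper chaperone of cytochrome oxidase, was at -0.37 without replicate 1. It has a trough at ZT48 and overlaps 2 other loci on the opposite strand. Reads from the shared stretches cannot be told apart. Of the 5 genes lower at 3 h, 3 had no overlap between heat-treated and control libraries. The TRAP control library of replicate 1 at 3 h stood apart, with 18 late-night genes at least 1 log2 unit above the mean of its other replicates and 7 as far below.

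At 6 h ENH1, a rubredoxin-like plastid protein, was higher by 1.81 ± 0.36 in TRAP and 1.73 ± 0.37 in total mRNA, and both calls were lost without replicate 1 or without replicate 3. AT1G29600 was higher by 1.67 ± 0.26 in total mRNA. Among called genes whose libraries did not overlap, GBSS1, LDOX and PCC1 were lowest. GBSS1 had 2.43, 4.295 and 4.87 scaled CPM in heat-treated TRAP libraries, against 39.0, 7.71 and 11.7 in controls, and PCC1 had 1.56, 0.165 and 0.0974 against 58.4, 1.99 and 24.3. LDOX had 2.09, 1.32 and 1.95 against 46.7, 2.26 and 8.37. DFR had 0.695, 1.16 and 2.05 against 63.2, 0.531 and 7.66, with overlap, and fell by 4.01 ± 1.02. Control replicate 1 was the highest of its group for all 4 genes, and the control libraries spread widely. GBSS1 fell by 2.23 ± 0.45 in TRAP and 2.44 ± 0.41 in total mRNA, LDOX by 3.35 ± 0.78 and 2.48 ± 0.66, and PCC1 by 5.72 ± 1.22 and 5.82 ± 0.99. Without replicate 1 the LDOX difference was -1.66 in TRAP and -0.83 in total mRNA and was not called, and the PCC1 calls were lost too. Without replicate 3 the calls of LDOX and PCC1 in both kinds of RNA and of GBSS1 in TRAP were lost. BBX31 was higher by 0.75 ± 0.20 at 0 h in TRAP, then fell by 0.78 ± 0.23 at 1 h, 0.88 ± 0.26 at 3 h and 1.46 ± 0.32 at 6 h. On the light harvesting list none of 20 was higher and 15 were lower at 6 h in TRAP, clock genes had 5 higher and 10 lower of 30, and phenylpropanoid and flavonoid genes 6 higher and 2 lower of 22.

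Another 6 pathway lists held none of the 100 genes. Late in the night, in TRAP controls, all 15 aliphatic glucosinolate genes were higher, as were 12 of 18 nitrate and sulfate assimilation genes with 3 lower, and 4 of 10 chlorophyll synthesis genes with 2 lower. All 11 cold-regulated genes tested were lower, 12 of 18 genes of PIF signalling and cell growth were lower with 1 higher, and 5 of 10 brassinosteroid and gibberellin genes were lower with none higher. After heat the glucosinolate list had 1 higher and 14 lower, nitrate and sulfate assimilation 3 higher and 14 lower, chlorophyll synthesis 6 higher and 2 lower, and cold-regulated genes 6 higher and 4 lower. The growth list had 12 higher and 5 lower, and brassinosteroid and gibberellin genes 4 higher and 3 lower.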

How the data were processed

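The deposited tables hold the authors' whole-number counts per gene. The first covers the 100 libraries sampled around the day and the second the 48 of the recovery experiment. The submitters' processing notes name cutadapt, FastQC, HISAT2 2.2.0 and the TAIR10 genome. No label or file header gives the counting tool, its annotation or its use of strand. All 37898 nuclear rows matched RefSeq gene identifiers. The other 296 rows are chloroplast or mitochondrial genes, 0.140% to 37.1% of a time-course library, and were left out of library totals and tests.

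Genes passed edgeR's filterByExpr (minimum count 10, minimum total 15) and were scaled by TMM. Each kind of RNA and experiment was fitted with 1 mean per treatment and time, using edgeR 4.0.16 in R 4.3.3 (robust quasi-likelihood F test), with Benjamini-Hochberg adjusted p-values over all genes tested and calls at 0.05. TRAP and total mRNA were compared, in heated seedlings, within 1 fit over all time-course libraries. Log2 differences are given with an SE derived from the test, as the absolute difference divided by the square root of its F statistic. The number of libraries per group is n. Of these comparisons, only the TRAP heat difference averaged over times was tried on simulated counts. Those counts held no change with time of day.

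Named genes are the 10 with the largest ratio, those next to the limit, members of the pathway lists, transcription factors, the 3 highest and 3 lowest non-overlapping calls of each comparison and the 5 smallest p-values for time of day. Other genes in the text were picked after their values were seen, for a known role. The members and the lists were chosen with earlier results of these data known.

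Alternatives were RLE scaling, DESeq2 1.42.0, a looser filter, organelle genes kept, equal depth, a replicate block and leaving out each replicate number. Leaving out the ZT48 libraries with replicate 3 at ZT51, and using ZT72 for ZT48, were chosen after seeing the data. No 2 libraries held identical values. Same-numbered heated and control libraries deviated together (correlation above 0.1) in 9 of 23 TRAP pairs and 6 of 23 total mRNA pairs, so the numbers were not taken as pairs. Same-numbered TRAP and total mRNA libraries did so in 16 of 25 control and 17 of 24 heated pairs, and in recovery in 12 of 12 control and 10 of 12 heated pairs, up to 0.806. Promoters are RefSeq sequence of TAIR10.1. The values of 1 member are not reported here.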

Additional observations from a re-analysis of the deposited data

Results flagged for a closer look

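The heat response in TRAP differed between the 8 times of day in 29 of the 93 late-night genes tested, by an F test of the interaction itself (edgeR quasi-likelihood test). Over all genes tested the share was 7.10%. The smallest adjusted p-values were 7.47e-18 for RVE2, 1.48e-14 for AT3G28270, 1.52e-11 for cPT4, 3.14e-10 for BAM3 and 4.6e-09 for AT4G06665, the noncoding locus opposite BAM3. RVE2, AT3G28270 and cPT4 were higher after heat at all 8 times and differed in size, while BAM3 was higher at ZT48, ZT51 and ZT54 and lower at ZT66.

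The late-night difference itself changed with heat in 21 of the 93 genes, again by a test of the difference between differences. It was smaller after heat in 20 and larger in 1, AT1G78995, while 2.58% of all genes were called lower and 2.65% higher. The TRAP controls behind both tests are not independent of the choice of genes.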

How the results depend on the processing

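Counts recomputed under an alternative stayed within 1.5 times the value reported in 189 cases and moved further in 21. Recomputed values of named genes kept direction and call in 838 cases, lost the call in 62 and gained it in 8, and none changed sign with a call. The count of 29 genes whose heat response differed between times of day was 57 with no filter on low counts, 31 without the libraries that stand apart and 19 to 21 when a replicate number was left out. The 21 changed late-night differences became 11 to 17. In recovery total mRNA, the 27 genes called at 1 h became 13 to 24. The 0 at 3 h became 2 with DESeq2, 12 with no filter and 0 to 1 when a replicate number was left out. The 28 at 6 h became 43 with no filter and 7 to 35. In recovery TRAP, the 19 at 1 h became 11 to 19. The 8 at 3 h became 5 with no filter, 4 with the replicate block and 1 to 12. The 25 at 6 h became 4 to 27. The replicate block moved no other count by over 1.5 times. The cause of these moves was not tested, beyond the smaller number of libraries when a replicate was left out. The choice of genes kept 62 of 100 with ZT72 in place of ZT48, 68 without the libraries that stand apart and 69 to 86 when a replicate number was left out. Low counts limit the noncoding loci in TRAP, of which 12 of 17 could be tested.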

Other observations

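Control seedlings at ZT72, which have no heated counterpart, entered no test. In total mRNA the level at ZT72 was at least 1 log2 unit above that at ZT48 in 35 of the 100 genes and within 1 log2 unit in 65. In TRAP GBSS1 had 207, 228 and 211 scaled CPM at ZT72 and 228, 236 and 193 at ZT48, and RVE2 had 47.8, 41.4 and 47.1 at ZT72 and 38.2, 35.9 and 39.8 at ZT48. Replicate 2 of the ZT63 controls lay apart from its group in both kinds of RNA: 13 late-night genes in total mRNA and 7 in TRAP were at least 1 log2 unit below the mean of the other replicates, and 4 in each were as far above.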
